A study of Mus musculus with 4 samples.

Results

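Myoglobin, the adult hemoglobin chains and the enzyme that starts heme synthesis were followed through a fractionation of mouse skeletal muscle. The rows with the gene symbols Mb, Hba-a1, Hba-a2, Hbb-bs, Hbb-bt, Alas1 and Alas2 were taken from the gene table, which gave 7 of 16472 genes. RNA sequencing was done on 4 libraries from untreated wild-type mice (WT), 2 of isolated mitochondria (SM-mito) and 2 of the tissue left beside them (SM-total). The titles of the second group name total tissue, but its treatment label names tissue without mitochondria. It is called remaining tissue here, and whether it was whole or depleted is not settled. The age of the mice is not given in the labels, and nothing says that the libraries came from separate animals, so p-values measure the spread between these libraries, which may be technical.

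Myoglobin and hemoglobin both carry oxygen on heme, an iron porphyrin. Myoglobin is made by muscle fibres and holds oxygen in their cytosol, while hemoglobin joins alpha and beta chains in red blood cells. Heme synthesis begins and ends inside mitochondria: 5-aminolevulinate synthase makes the first precursor in the matrix, ferrochelatase inserts iron in the last step, and the enzymes between them lie partly in the cytosol. Alas1 encodes the synthase found in most cells and Alas2 the form of the erythroid lineage. All of these genes are nuclear, and their mRNAs are translated on cytosolic ribosomes.

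The hemoglobin genes come in near-identical pairs, and the sequences decide what each value can say. In GENCODE M21 (GRCm38), the coding parts of the alpha genes Hba-a1 and Hba-a2 were both 426 nt long and differed at 1 base, C381T, counted from the first base of the start codon with the base of Hba-a1 first. The coding parts of the beta genes Hbb-bs and Hbb-bt were both 441 nt long and also differed at 1 base, C417T, with the base of Hbb-bs first. The stretches of 60 nt that hold these bases are shown 5′ to 3′ on the coding strand, with the differing base in capitals. They lie at chr11:32284307-32284366 (plus strand, Hba-a1), chr11:32297124-32297183 (plus, Hba-a2), chr7:103826669-103826728 (minus, Hbb-bs) and chr7:103812660-103812719 (minus, Hbb-bt).
Hba-a1: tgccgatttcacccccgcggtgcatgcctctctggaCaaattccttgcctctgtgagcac
Hba-a2: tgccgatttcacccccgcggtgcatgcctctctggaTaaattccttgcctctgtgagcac
Hbb-bs: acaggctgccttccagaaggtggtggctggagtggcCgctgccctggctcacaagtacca
Hbb-bt: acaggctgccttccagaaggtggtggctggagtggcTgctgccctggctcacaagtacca

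Reads were up to 75 nt long. Of the 75-nt windows in its annotated transcripts, Hba-a1 had 37.8% to itself and Hba-a2 had 19.0%, and the rest were found in its partner. Hbb-bs had 44.2% to itself and Hbb-bt 43.4%. The study states that reads aligning to several places were left out. Whether this held for the hemoglobin pairs is not settled, since 105 of the 6916 genes tested had no 75-nt window of their own within annotated transcripts and still held values. Among them were 47 ribosomal RNA genes with medians of 1604 and 2022 normalized counts in the libraries of remaining tissue. Entpd4 and Entpd4b, a duplicated pair with no window of its own, held 98 and 98 against 90 and 107 normalized counts in remaining tissue. Reads that reach into flanking or intronic sequence may be unique and were not examined. How reads shared by Hba-a1 and Hba-a2, or by Hbb-bs and Hbb-bt, were treated is thus not known, and the sums over a pair and over all 4 genes are more certain than any single hemoglobin gene.

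The other 3 genes were less ambiguous. Mb (chr15:77015487-77050670, minus strand) had 77.6% of its windows to itself and shared the rest with Gm49540, which overlaps it. Alas1 (chr9:106233455-106248654, minus strand) had 92.7% and shared the rest with the overlapping 4930500F10Rik. Alas2 (chrX:150547375-150570638, plus strand) had 88.3% and shared the rest with Apex2. Hba-a1 spans chr11:32283511-32284465, Hba-a2 chr11:32296489-32297298, Hbb-bs chr7:103826534-103828096 and Hbb-bt chr7:103812524-103813996.

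The table gives normalized counts, which are reads divided by a size factor of the library and rounded. One read was worth 9.047 and 5.059 normalized counts in the isolated mitochondria replicates 1 and 2, and an estimated 0.142 in remaining tissue. The depth of isolated mitochondria was 42756861 and 35307478 reads assigned to genes. That of remaining tissue was lower, at an estimated 15700741 and 15298676. Genes of the mitochondrial genome took 95.3% and 94.1% of reads in isolated mitochondria and 22.31% and 20.53% in remaining tissue. The reads on nuclear genes, leaving out 17 nuclear copies of mitochondrial DNA, were 100924 and 181152 in isolated mitochondria, or 0.236% and 0.513%. The precision of every value for isolated mitochondria below rests on these few reads, and intervals cover counting error only.

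Levels were compared between genes per length, on 2 bases, because the treatment of shared reads is not settled. Per kb of the longest transcript (normalized counts, mean ± SD, n = 2), Mb had 1662 ± 199.8 in remaining tissue, Hba-a2 101.1 ± 5.11 and Hba-a1 84.4 ± 4.05. Alas1 had 47.8 ± 0.208 per kb, Hbb-bs 47.8 ± 0, Hbb-bt 31.3 ± 2.01 and Alas2, the erythroid synthase, 2.21 ± 0.347. On this basis Alas1 and Hbb-bs did not differ beyond their spread. If shared reads were left out, the windows a gene has to itself are the fitting length, and the gaps change. Per 1000 such windows, Mb had 1570 ± 188.7 normalized counts, Hba-a2 615.4 ± 31.1, Hbb-bs 106.4 ± 0 and Hbb-bt 80.6 ± 5.18, while Hba-a1 had 241.5 and 258.5 in the libraries of remaining tissue. Alas1 had 40.4 ± 0.176 and Alas2 2.51 ± 0.394, so that both beta genes then stood above Alas1. Mb was highest and Alas2 lowest on both bases. In isolated mitochondria Mb was again highest, at 1063 ± 32.0 per kb and 1004 ± 30.2 per 1000 windows of its own.

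**Figure D1:**
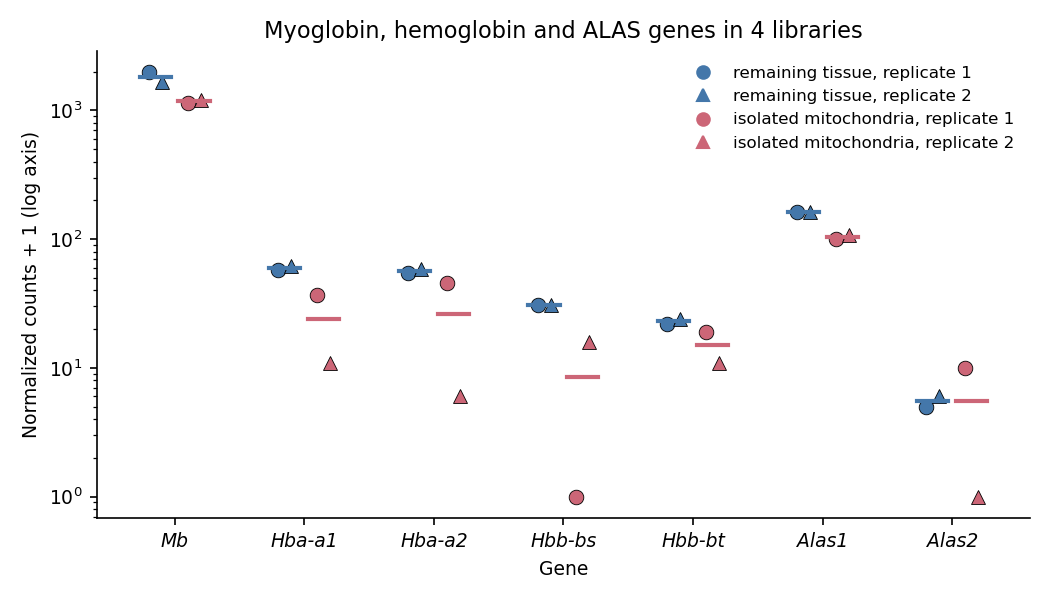
Normalized counts plus 1 (log axis) of the 7 genes in each of the 4 libraries, with bars at the group means. Points of isolated mitochondria lie below those of remaining tissue for every gene but Alas2, whose groups overlap, and the replicates of isolated mitochondria lie apart for the hemoglobin genes.

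None of the 4 genes that could be tested passed the test between fractions, and the other 3 had too low values. With the deposited scaling, Mb and Alas1 stood in isolated mitochondria at close to the same fraction of their level in remaining tissue. The hemoglobins stood lower on average, but with few reads and a wide interval. The test was limma on log2(normalized count + 1) over the 6916 genes whose values averaged at least 20, with Benjamini-Hochberg adjustment and a threshold of 0.05. Of the 7 genes, 4 passed the minimum mean (Mb, Hba-a1, Hba-a2 and Alas1). Of these, 0 had an adjusted p under 0.05 in limma and 0 in edgeR, which called 31.1% of all genes tested. In limma 2 had an unadjusted p under 0.05, against 37.0% of all genes tested, and 2 (Mb and Hba-a1) passed in DESeq2, which called 36.4%. By limma's adjusted p, 9.30% of all genes tested were called lower in isolated mitochondria and 7.32% higher, or 16.6% in either direction. Groups did not overlap for 6 of the 7 genes, and for all 4 of those tested, against 69.1% of all genes tested.

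Mb, which encodes myoglobin, had 1991 and 1679 normalized counts in remaining tissue and 1149 and 1199 in isolated mitochondria, the latter from 127 and 237 reads. Both libraries of isolated mitochondria lay under both of remaining tissue, and the replicates of isolated mitochondria were closer to each other than those of remaining tissue. The means were 1835 ± 220.6 and 1174 ± 35.4 (SD, n = 2), a log2 difference of -0.64 (SE 0.18, 95% interval -1.12 to -0.16) with a limma adjusted p of 0.0832. DESeq2 called it at -0.62 with an adjusted p of 0.00351, and with libraries scaled to nuclear genes outside copies it was 0.26 (limma adjusted p 0.370). From the reads alone, the ratio of isolated mitochondria to remaining tissue was 0.644 (95% counting interval 0.579 to 0.714).

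Alas1, the housekeeping first enzyme of heme synthesis, had 163 and 162 normalized counts in remaining tissue and 100 and 106 in isolated mitochondria, from 11 and 21 reads. The replicates of each fraction were close together and the fractions did not overlap. The log2 difference was -0.65 (SE 0.20, 95% interval -1.20 to -0.10) with a limma adjusted p of 0.1002. The ratio from reads was 0.639 (95% counting interval 0.436 to 0.905). Without isolated mitochondria replicate 1 or 2, Alas1 had an adjusted p of 0.0170 or 0.0138, but these fits, in which the lone library is assumed to vary like those of the other fraction, called 65.0% and 70.0% of all genes tested. Without remaining tissue replicate 1 or 2 its adjusted p was 0.821 or 0.809.

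No difference between Alas1 and Mb in their partition was detected. The ratio of Alas1 to Mb was 0.0819 and 0.0965 in remaining tissue and 0.0870 and 0.0884 in isolated mitochondria. The values of isolated mitochondria lay between those of remaining tissue (exact permutation test, two-sided, p = 1, where 0.333 is the smallest p that 2 against 2 can give). In a fit on each gene relative to Mb in its own library, which does not depend on the scaling between libraries, Alas1 differed by -0.01 on the log2 scale (95% interval -0.74 to 0.71, limma adjusted p 0.977). The interval leaves room for a change of Alas1 against Mb in either direction.

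The alpha chain gene Hba-a1 had 57 and 61 normalized counts in remaining tissue and 36 and 10 in isolated mitochondria, from 4 and 2 reads. Its log2 difference was -1.57 (SE 0.68, 95% interval -3.43 to 0.29) with a limma adjusted p of 0.178. The value rested on single libraries: it was -2.45 without isolated mitochondria replicate 1 (adjusted p 0.0135) and -0.70 without replicate 2 (0.0283), in fits that called 65.0% and 70.0% of all genes tested. Without remaining tissue replicate 1 or 2 its adjusted p was 0.677 or 0.712. Hba-a2, which encodes the same kind of chain, had 54 and 58 normalized counts in remaining tissue and 45 and 5 in isolated mitochondria, from 5 reads and 1 read. Its log2 difference was -1.78 (SE 1.07, 95% interval -4.71 to 1.16) with a limma adjusted p of 0.293, and it was -3.25 without isolated mitochondria replicate 1 (adjusted p 0.0134) and -0.31 without replicate 2 (0.0848), in the same fits. Without remaining tissue replicate 1 or 2 the adjusted p of Hba-a2 was 0.672 or 0.706. For both alpha genes the second library of isolated mitochondria was the low one.

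The beta chain genes were under the minimum mean and were not tested. Hbb-bs had 30 normalized counts in each library of remaining tissue and 0 and 15 in isolated mitochondria, where the first library held 0 reads, which allows up to 0.0702 ppm of reads, and the second held 3. Its ratio from reads was 0.325 (95% counting interval 0.0668 to 0.957). Hbb-bt had 21 and 23 normalized counts in remaining tissue and 18 and 10 in isolated mitochondria, from 2 reads in each, with a ratio of 0.590 (0.160 to 1.53). The low library of isolated mitochondria thus was not the same for every hemoglobin gene, since Hbb-bs was lower in the first and the other 3 genes were lower in the second. With a minimum mean of 5, limma gave Hbb-bs -2.95 (SE 1.56, adjusted p 0.313) and Hbb-bt -0.67 (SE 0.47, adjusted p 0.421).

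Summed over the 4 genes, which removes the question of how reads were placed within a pair, hemoglobin had 162 and 172 normalized counts in remaining tissue and 99 and 40 in isolated mitochondria, from 11 and 8 reads. The means were 167.0 ± 7.07 and 69.5 ± 41.7 (SD, n = 2), and the ratio from reads was 0.369 (95% counting interval 0.222 to 0.578). The alpha genes together had 111 and 119 against 81 and 15 normalized counts, and the beta genes 51 and 53 against 18 and 25. Neither sum overlapped between fractions. The ratio of alpha to beta was 2.18 and 2.25 in remaining tissue and 4.5 and 0.6 in isolated mitochondria, so that it was tight in the first and scattered to both sides in the second (exact permutation test, two-sided, p = 1). The number of red cells, their RNA content and its carry-over into isolated mitochondria were not measured and cannot be told apart.

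Hemoglobin was not shown to differ from myoglobin in its partition. The ratio of the 4 hemoglobin genes to Mb was 0.0814 and 0.102 in remaining tissue and 0.0862 and 0.0334 in isolated mitochondria. One value of isolated mitochondria lay among those of remaining tissue and the other below them (exact permutation test, two-sided, p = 0.667, where the smallest possible is 0.333). With the beta genes only, the ratio was 0.0256 and 0.0316 against 0.0157 and 0.0209, without overlap (exact permutation test, p = 0.333, the smallest possible). Relative to Mb, Hba-a1 differed by -0.93 on the log2 scale (95% interval -2.66 to 0.80, limma adjusted p 0.399).

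Alas2, the erythroid synthase, had 4 and 5 normalized counts in remaining tissue, an estimated 28 and 35 reads. It had 9 and 0 in isolated mitochondria, from 1 read and 0 reads. The fractions overlapped, the ratio from reads was 0.726 (95% counting interval 0.0181 to 4.195), and 0 reads in the second library allow up to 0.0850 ppm of reads. A difference in Alas2 was not detectable at this depth.

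How much of each mRNA accompanied the mitochondria depended on the total used. Of all assigned reads, Mb took 893.8 and 773.5 ppm in remaining tissue and 2.97 and 6.71 in isolated mitochondria, which is 281-fold and 124-fold below the mean of remaining tissue. Alas1 took 73.9 ± 1.04 ppm in remaining tissue and 0.257 and 0.595 in isolated mitochondria, 287-fold and 124-fold lower. The 4 hemoglobin genes took 76.0 ± 4.58 ppm against 0.257 and 0.227, 295-fold and 335-fold lower. Of the reads on nuclear genes outside the copies, Mb instead took 1171 and 989.0 ppm in remaining tissue and 1258 and 1308 in isolated mitochondria, slightly more. Alas1 took 95.6 ± 0.290 against 112.5 ± 4.88 ppm, and hemoglobin 98.3 ± 4.26 against 76.6 ± 45.9, with 109.0 and 44.2 in the libraries of isolated mitochondria.

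**Figure D2:**
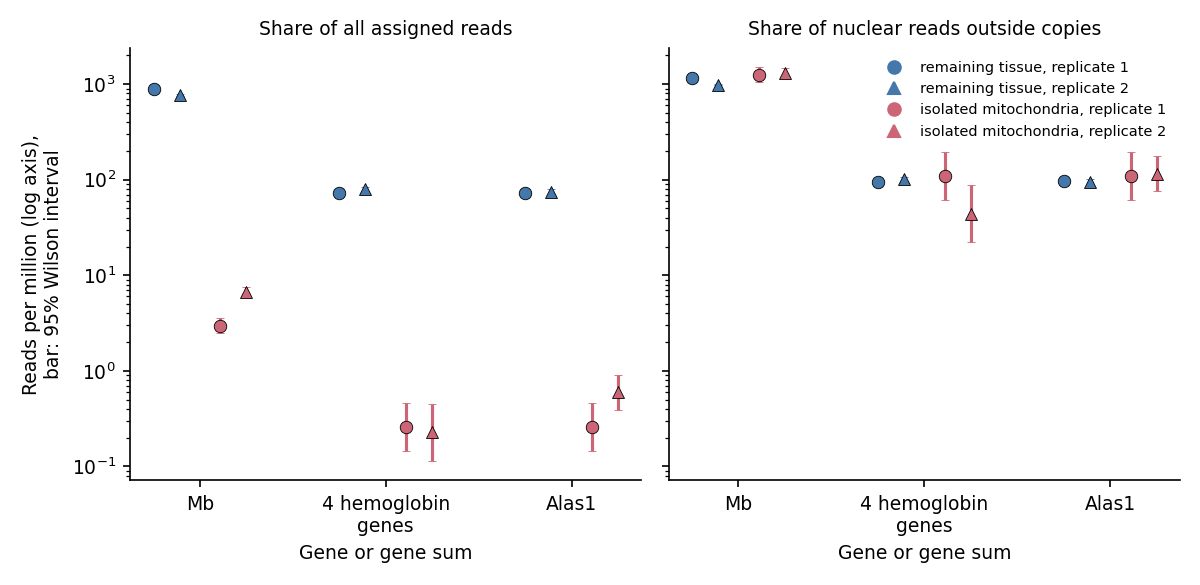
Reads in ppm (log axis) of Mb, the 4 hemoglobin genes together and Alas1 in each library, as a share of all assigned reads (left) and of reads on nuclear genes outside copies of mitochondrial DNA (right), with 95% Wilson intervals. The fractions are over 100-fold apart on the left and close together on the right, where the hemoglobin values of isolated mitochondria are 109.0 and 44.2 ppm.

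The direction of Mb and Alas1 therefore followed the scaling. The median gene tested was at -0.44 on the log2 scale with the deposited scaling, at -6.90 when each library was scaled to its total over all genes, and at 0.43 when scaled to nuclear genes outside copies. Mb was at -0.64, -7.53 (adjusted p 9.13e-05) and 0.26 (adjusted p 0.370) in these fits, and Alas1 at -0.65, -7.40 and 0.23.  Among 6429 nuclear protein-coding genes tested (median -0.47, quartiles -1.27 and 0.48), 44.1% had a lower log2 difference than Mb, 43.7% than Alas1, 18.3% than Hba-a1 and 14.5% than Hba-a2.

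Most muscle fibre marker mRNAs fell in isolated mitochondria. Of 16 muscle fibre markers, all tested, 12 fell in isolated mitochondria and none rose in limma, with a median log2 difference of -1.92 against -0.44 for all genes tested. Their summed level was 591314 and 576173 normalized counts in remaining tissue and 83946 and 75891 in isolated mitochondria. Ttn, which encodes the giant sarcomere spring titin, had 280729 and 251732 against 21482 and 15091 normalized counts, a log2 difference of -3.88. The fast myosin heavy chain gene Myh4 had 130847 and 139440 against 15166 and 11712, and Atp2a1, the calcium pump of fast fibres, 37987 and 37650 against 5547 and 5054. With scaling to nuclear genes outside copies, 15 of the 16 markers were still negative and 8 passed as lower, while Tnnc2 turned positive.

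**Figure D3:**
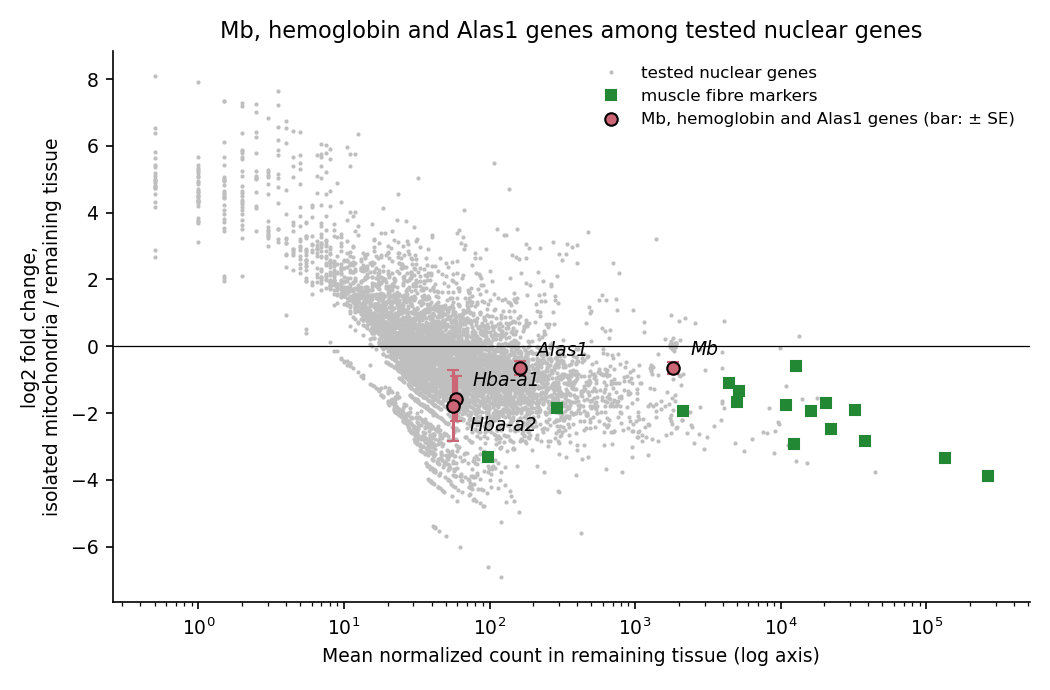
The log2 difference between isolated mitochondria and remaining tissue against the mean normalized count in remaining tissue (log axis) for tested nuclear genes (grey), muscle fibre markers (green) and Mb, Hba-a1, Hba-a2 and Alas1 (red, bars show the SE). Mb at -0.64 lies above 15 of the 16 muscle fibre markers, which reach -3.88.

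The difference from Mb was tested directly, with each gene taken relative to Mb in the same library. Relative to Mb, 3.20% of the other 6915 genes passed as lower in isolated mitochondria and 12.2% as higher. Of the 16 muscle fibre markers, 15 were negative relative to Mb and 7 passed as lower in limma, with 0 higher, 12 at an unadjusted p under 0.05 and a median of -1.28. The 7 were the myosin heavy chain genes Myh1, Myh2 and Myh4, the actin gene Acta1, the creatine kinase gene Ckm, Atp2a1 and Ttn. Ttn differed from Mb by -3.25 on the log2 scale (limma adjusted p 0.0088) and Ckm by -1.31 (adjusted p 0.0359). The count was 13 without isolated mitochondria replicate 1, and again 13 without replicate 2. Tnnc2, the fast troponin C gene, went with Mb, at 0.04 (95% interval -0.65 to 0.73, adjusted p 0.928). All of these tests share the values of Mb itself, so an error in Mb moves them together.

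Among nuclear protein-coding genes with a mean of at least 1000 normalized counts in remaining tissue, which number 106 with Mb, 100 had a lower log2 difference than Mb. Their median was -1.97, with quartiles of -2.58 and -1.58. Choosing genes by their level in remaining tissue favours those that are lower in isolated mitochondria, so these counts partly follow from the choice. Relative to Mb, 64 of the other 105 passed as lower in limma and 1 as higher. Among 88 genes chosen by a mean of at least 1000 over all 4 libraries, 43 passed as lower and 16 as higher. The count of 64 was 38 without remaining tissue replicate 2, and 47 to 86 without any other library. Among the 105, the gene that passed as higher was Gsn, which encodes the actin-severing protein gelsolin, at 3.85 (adjusted p 0.00224), a name given after its value was seen. The 5 genes above Mb in log2 difference were Gsn, Fth1, Tpt1, Eef2 and Tnnc2.

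Mb has one of the shorter transcripts in this group, and shorter transcripts stood higher in isolated mitochondria. The longest annotated transcript of Mb is 1104 nt, against a median of 4037 nt over the 106 genes, of which 8 were shorter than Mb. Across the 106 genes, which share their 4 libraries, Pearson's r between log2 length and log2 difference was -0.57 and Spearman's rho -0.646, given as a description. The study set a separate fragmentation time for RNA of mitochondria. Its isolation of mitochondria for RNA, described for hearts, also used digitonin and RNase A. These steps cannot be told apart from the fraction. Of the other 8 of these genes within 25% of the Mb transcript length, 6 fell in isolated mitochondria, where 9.30% of all genes tested were called lower. Of the 8, 7 had a lower log2 difference than Mb. Like the rest of the 106, the 8 were chosen by their level in remaining tissue, which favours lower values in isolated mitochondria. Among them, Tnnt3 (fast troponin T) was at -1.70, Tnni2 (fast troponin I) at -1.19 and Tcap (a Z-disc protein) at -0.85, while Tpt1 was at 0.42. Relative to Mb, 0 of the 8 passed in limma and 3 had an unadjusted p under 0.05. Mb was therefore not shown to differ from abundant transcripts of its own length. The part of transcript length in the difference from the longer ones was not tested.

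**Figure D4:**
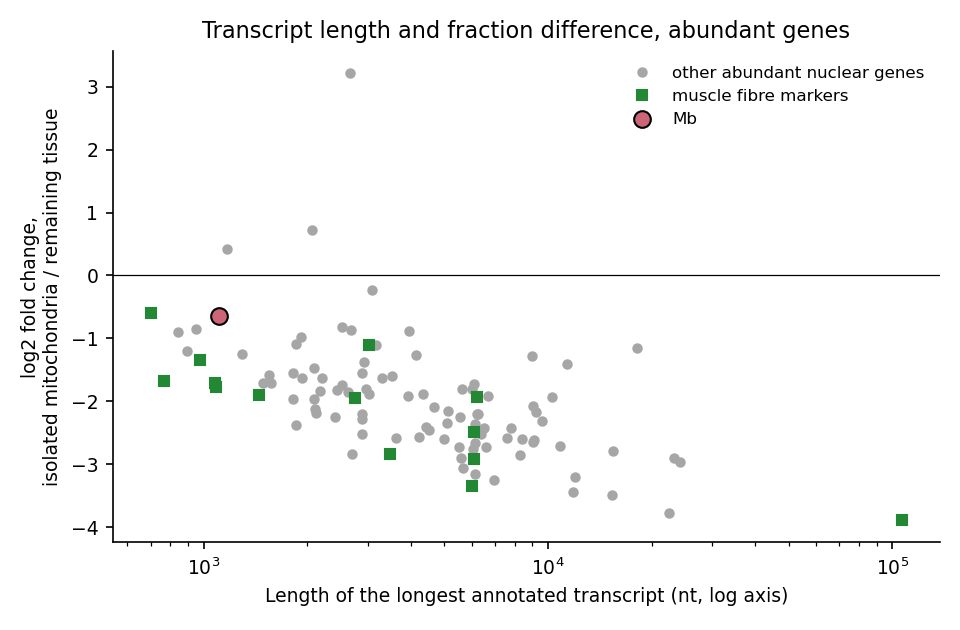
The log2 difference between isolated mitochondria and remaining tissue against the length of the longest annotated transcript (nt, log axis) for 106 nuclear protein-coding genes with a mean of at least 1000 normalized counts in remaining tissue. Mb, at 1104 nt and -0.64, lies near the upper edge of the short transcripts, and the long ones reach -3.88 (Ttn).

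The genes whose levels were most like those of Mb over the 4 libraries, by Euclidean distance on log2(normalized count + 1) among 6428 nuclear protein-coding genes, were Atp5a1 (distance 0.386), Pgam2 (0.413) and Atp5b (0.513). Atp5a1 and Atp5b encode subunits of the mitochondrial ATP synthase, and Pgam2 the muscle phosphoglycerate mutase. Atp5a1 had 2118 and 1912 normalized counts in remaining tissue and 932 and 1305 in isolated mitochondria. Alas1 was nearest to Polr2a (0.0843), Flii (0.0870) and Stk40 (0.215). Hba-a1 was nearest to 6030458C11Rik (0.0900), Dnajb2 (0.218) and Slc45a4 (0.255), and Hba-a2 to Cmbl (0.237), Htt (0.269) and Ino80 (0.327), where neighbours were set largely by the same few reads in isolated mitochondria.

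The tested enzymes after the synthase were not called, and their median was that of all genes tested. Of the genes of heme synthesis after the first step, 3 passed the minimum mean, and in limma 0 rose and 0 fell (0 at an unadjusted p under 0.05, and 0 in edgeR and DESeq2). Their median log2 difference was -0.44, the same as that of all genes tested. Fech, which encodes ferrochelatase of the inner mitochondrial membrane, had 160 and 153 normalized counts in remaining tissue and 109 and 121 in isolated mitochondria, a difference of -0.44 (adjusted p 0.201). Urod, the cytosolic uroporphyrinogen decarboxylase, was at -0.32 (SE 0.38, adjusted p 0.562), from 3 and 9 reads in isolated mitochondria. Cpox, the coproporphyrinogen oxidase between the mitochondrial membranes, was at -0.45 (SE 0.62, adjusted p 0.623), from 5 and 3 reads. Without isolated mitochondria replicate 1 or 2, Urod was at 0.05 or -0.70 and Cpox at -1.21 or 0.32. Alad, Uros and Ppox had means of 6.5 to 16.5 and were not tested. With scaling to nuclear genes outside copies, all 3 tested genes turned positive.

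Among 10 genes of heme breakdown and transport, 9 had a row in the table analysed here and 5 were tested. In limma 0 rose or fell, and 1 had an unadjusted p under 0.05, against 37.0% of all genes tested. As higher, 2 passed in edgeR and 2 in DESeq2, which called 31.1% and 36.4% of all genes tested in either direction. The median log2 difference of the 5 was 0.35. Pgrmc1, a heme-binding membrane protein, had 17 and 12 normalized counts in remaining tissue and 127 and 51 in isolated mitochondria, a difference of 2.42 (SE 0.56). It was among those passing in edgeR and DESeq2, but met the minimum mean only through isolated mitochondria. Its calls there partly follow from that filter. Hmox2, the constitutive heme oxygenase, was at 1.12 (limma adjusted p 0.199), from 5 and 22 reads in isolated mitochondria. It was the other gene passing in edgeR (1.43, adjusted p 0.0450) and DESeq2 (1.40, adjusted p 0.0222). Slc48a1, a heme transporter of lysosomes, was at 0.35 (limma adjusted p 0.357).

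Of 18 genes of mitochondrial heme and iron handling, 16 had a row and 12 were tested. Of these, 2 rose, 1 fell and 9 did not pass, where 7.32% of all genes tested were called higher and 9.30% lower. The median log2 difference of the 12 was -0.15. Fdx1, a ferredoxin that passes electrons in the matrix, had 14 and 17 against 54 and 51 normalized counts, the latter from 6 and 10 reads. Its log2 difference was 1.70 (SE 0.34, limma adjusted p 0.0465). However, Fdx1 met the minimum mean only through isolated mitochondria, so its call partly follows from that filter. Glrx5, a glutaredoxin of iron-sulfur cluster assembly, had 41 and 41 against 90 and 96 (1.16, SE 0.24, adjusted p 0.0476). Isca1, another gene of the same pathway, had 158 and 136 against 45 and 30 (-1.97, SE 0.31, adjusted p 0.0296). The replicates of each fraction were close for these 3 genes, and none overlapped, which held for 69.1% of all genes tested. None of the 3 passed without remaining tissue replicate 1 or without replicate 2 (adjusted p 0.205 to 0.625) or with a minimum mean of 5 (0.0538 to 0.0640), and with scaling to the total of all genes Fdx1 and Glrx5 turned negative.

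Of 14 genes of iron uptake and storage, 12 had a row and 10 were tested. Of these, 1 rose and 1 fell, where 7.32% of all genes tested were called higher and 9.30% lower. The median log2 difference of the 10 was 0.35. Ftl1, the ferritin light chain, had 59 and 75 normalized counts in remaining tissue and 425 and 612 in isolated mitochondria, from 47 and 121 reads. It rose by 2.92 on the log2 scale (SE 0.29, limma adjusted p 0.0144), passed without any 1 of the 4 libraries, and turned negative only with scaling to the total of all genes. Tfrc, the transferrin receptor that brings iron into cells, had 166 and 144 against 36 and 25. It fell by 2.33 (SE 0.30, adjusted p 0.0222), but did not pass without remaining tissue replicate 1 (0.194) or replicate 2 (0.124). Fth1, the ferritin heavy chain, had 1179 and 1118 against 1348 and 2681 (0.73, adjusted p 0.239), and Pcbp2, an iron chaperone and RNA-binding protein, was at -0.68 (adjusted p 0.177). Ferritins have many processed pseudogenes, so both ferritin values are uncertain where reads can be placed in several genes.

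Of the other globins, Cygb, which encodes cytoglobin of fibroblasts and related cells, was the only 1 of 10 genes with a row. It had 22 and 19 normalized counts in remaining tissue and 90 and 197 in isolated mitochondria, and rose by 2.65 on the log2 scale (SE 0.47, limma adjusted p 0.0370). It passed without any 1 of the 4 libraries, turned negative with scaling to the total of all genes, and did not pass with a minimum mean of 5 (0.0655) or with no filter (0.0593). Relative to Mb, Cygb stood 3.28 higher on the log2 scale (95% interval 2.11 to 4.46, adjusted p 0.0142).

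**Figure D5:**
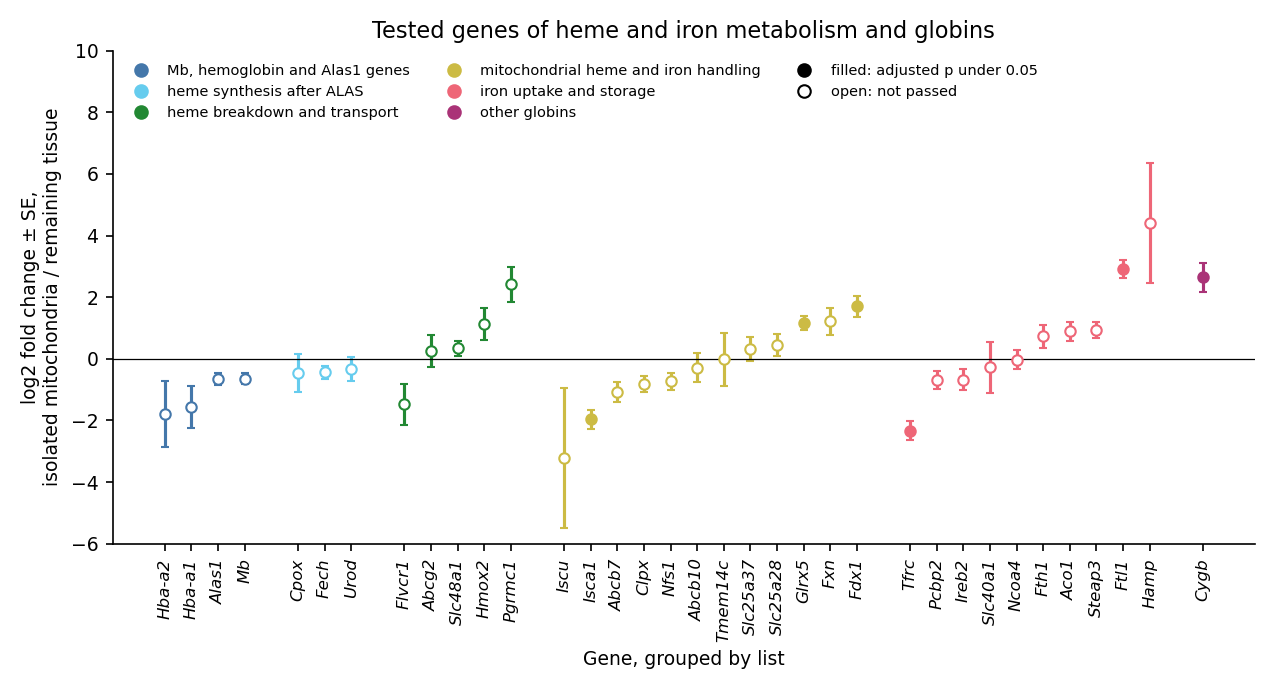
The log2 difference between isolated mitochondria and remaining tissue (± SE) of the tested genes of heme and iron metabolism and globins, grouped by list, with filled points for a limma adjusted p under 0.05. Ftl1 at 2.92, Cygb at 2.65, Fdx1 at 1.70 and Glrx5 at 1.16 are filled above 0, Isca1 at -1.97 and Tfrc at -2.33 below, and Mb, Alas1 and the alpha hemoglobins are open.

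Markers of other cells moved between the fractions, and their part in the values above was not tested. Of 22 erythroid markers, 18 had no row in the table analysed here, among them Slc4a1, Ahsp, Klf1 and Gata1. The 4 with a row summed to 252 and 232 normalized counts in remaining tissue and 72 and 101 in isolated mitochondria. The highest in remaining tissue was Tmcc2, with 131 and 125 against 9 and 10, which fell by 3.62 (adjusted p 0.0110) and did not pass without remaining tissue replicate 1 or 2 (0.180 and 0.159). Tmcc2 met the minimum mean only through remaining tissue, so its call partly follows from that filter. Bpgm, which makes a regulator of oxygen binding in red cells, was at -1.04 (adjusted p 0.190) and Gypc, a red cell membrane protein, at 0.18 (adjusted p 0.760). Bpgm and Gypc are not restricted to red cells, and Tmcc2 stood in remaining tissue above every single hemoglobin gene, of which the highest value was 61, and above Alas2.

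Of 14 leukocyte and platelet markers, 4 had a row, and they summed to 61 and 76 normalized counts in remaining tissue and 271 and 415 in isolated mitochondria. Most of each sum was Lyz2. Lyz2 of macrophages and neutrophils had 46 and 57 against 217 and 339 and rose by 2.38 (limma adjusted p 0.0229), but was at -4.43 with scaling to the total of all genes. Pf4 of platelets had 3 and 5 against 36 and 46 (log2 difference 3.09) and Ptprc 10 and 12 against 18 and 20. Pf4 met the minimum mean only through isolated mitochondria and is given without a test. A list of 12 hepatocyte markers was added after the values were seen, and most of them passed the minimum mean only through isolated mitochondria, so they are given as a description with no test. They summed to 329 and 94 normalized counts in remaining tissue and 15111 and 2940 in isolated mitochondria. Alb, which encodes serum albumin, had 185 and 30 against 6986 and 1629. The sum was higher in replicate 1 than in replicate 2 of both fractions. Hepatocytes also make heme and store iron. Hamp, the hormone hepcidin of the liver, had 2 and 0 against 63 and 20 normalized counts (log2 difference 4.40). Hamp too met the minimum mean only through isolated mitochondria. Like the hepatocyte markers, it was higher there in replicate 1 than in replicate 2. The hemoglobin sum (99 and 40) was also higher in replicate 1, from 11 and 8 reads. The summed alpha genes went that way (81 and 15), but the summed beta genes (18 and 25) were higher in replicate 2. Ftl1, Fth1 and Cygb were higher in replicate 2, and Mb (1149 and 1199) and Alas1 (100 and 106) were close in both. The part of hepatocyte RNA in any of these values was not tested.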

How the data were processed

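Per the submitters' processing notes, the authors used Trimmomatic 0.39, STAR 2.7.10a on mm10 (GRCm38), featureCounts 2.0.2 and DESeq2 1.30.1. The study's methods name other versions of the last 3 tools, single-end reads of 75 nt and the exclusion of ambiguous and multiply aligned reads. The strand setting and the rule for keeping genes are not given in the sources used here. The deposited values are a signal, gene counts divided by a size factor per library and rounded. In isolated mitochondria 100% of 10509 low values (up to 2000) in replicate 1 and 99.96% of 11660 in replicate 2 were whole reads within 0.1 read, and 1 common step was estimated for remaining tissue.

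Libraries were grouped by their titles. Genes with a mean of at least 20 were tested on log2(value + 1) with limma 3.58.1 (trend, two-sided, no covariates) in R 4.3.3, with Benjamini-Hochberg adjustment. In a fit added after the data were seen, each value was divided by that of Mb in its library. The script was tested on simulated data. Alternatives were other scalings, pseudocounts and filters, a replicate block, leaving out each library, and edgeR 4.0.16 and DESeq2 1.42.0 on reads. Shares carry 95% Wilson intervals, read ratios exact conditional intervals, and the floor was 3 reads. Windows were compared with all GENCODE M21 transcripts. Nuclear copies were genes with at least 50% of their transcript similar to mitochondrial genes (85% identity or more).

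The 7 genes and all lists were chosen with earlier results of these data known. Named were the 7 genes, the list genes that passed or the 3 with the largest mean where fewer passed, the 3 largest of each marker list, and the 3 nearest genes of each tested gene. Columns of function terms were not used. Some genes of these lists are not reported here.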

Additional observations from a re-analysis of the deposited data

How the results depend on the processing

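Over all genes tested, 506 were higher and 643 lower in isolated mitochondria (44.0% of calls higher). The counts were 38 and 6694 with scaling to the total of all genes (0.564% higher), 602 and 483 with the upper quartile (55.5%), 283 and 399 with a minimum mean of 5, 665 and 3026 with no filter (18%), 939 and 1215 in edgeR, 1195 and 1320 in DESeq2, and 1107 and 183 with scaling to nuclear genes outside copies (85.8%), an alternative added after the data were seen. Without 1 library they were 296 to 1724 and 176 to 3198. The log2 difference of Mb was -7.53 with the total of all genes and -0.62 in DESeq2, both past the threshold, 0.26 (adjusted p 0.370) with nuclear genes outside copies, and -0.76 to -0.52 without 1 library. Hba-a1 was at -7.87 and, in DESeq2, -1.55 (adjusted p 0.0463), and -2.45 to -0.70 without 1 library. Hba-a2 was at -7.93 with the total of all genes and -3.25 to -0.31 without 1 library. Alas1 was at -7.40 with the total of all genes, -0.65 with no filter (adjusted p 0.0227), 0.23 (adjusted p 0.462) with nuclear genes outside copies, and -0.69 to -0.61 without 1 library. Of 13 alternatives, Alas1 and Hba-a1 passed in 4 each and Mb and Hba-a2 in 2 each, and outside the added scaling all 4 genes were negative in each. All 4 passed with scaling to the total of all genes, which called 6694 of the 6916 genes tested lower. Other passes of Alas1, Hba-a1 and Hba-a2 came from fits without 1 library of isolated mitochondria, which called most genes tested. The cause of the changes between settings was not tested.

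Markers lower relative to Mb numbered 7 and 5 to 13 without 1 library, and abundant genes 64 and 38 to 86, or 43 when chosen by the mean over all 4 libraries. The ratio of hemoglobin to Mb was 0.0919 in remaining tissue and 0.0598 in isolated mitochondria, and with the beta genes only 0.0286 and 0.0183. Outside the mitochondrial genome, the share of Mb was 1062 and 88.5 ppm of reads and that of hemoglobin 96.7 and 4.65, and of nuclear reads outside copies they were 1080 and 1283, and 98.3 and 76.6. Replicate numbers are shared between the fractions, but no label says that they pair libraries. The summed hepatocyte markers were higher in replicate 1 of both. In remaining tissue Cyp2e1 (17 and 29) and Hp (10 and 13) went the other way. Deviations of same-numbered libraries had a correlation of 0.141 over 6916 genes. With the replicate block 630 genes were higher and 1144 lower, and Mb had an adjusted p of 0.143, Alas1 0.271, Hba-a1 0.0811 and Hba-a2 0.0756, while Fdx1 (0.0807) and Glrx5 (0.0958) did not pass. Depth limits the beta hemoglobins and Alas2, with 0 to 3 reads in each library of isolated mitochondria.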
